A study of Mus musculus with 8 samples.

Results

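The PARP genes of these libraries and Dtx3l, which encodes the ubiquitin ligase partner of PARP9, were examined in liver endothelial cells (ECs) with and without LRP1. The members were the rows of the deposited gene table whose symbol was Parp1, Parp2, Parp3, Parp8, Parp9, Parp10, Parp11, Parp12, Parp14 or Dtx3l, which gave 10 of 22520 protein-coding genes. They were grouped by known role into 6 interferon-linked genes (Parp9, Dtx3l, Parp10, Parp11, Parp12 and Parp14), 3 DNA repair genes (Parp1, Parp2 and Parp3) and Parp8. The data were mRNA-seq signals of 4 WT and 4 LRP1 eKO libraries from C57BL/6 mice at postnatal day 14, and the labels name the cells liver microvesicular cells. WT mice were LRP1 f/f; Cdh5-CreER-/- littermates and LRP1 eKO mice were LRP1 f/f; Cdh5-CreER+/-, so both groups carried the floxed Lrp1 allele. CreER, an inducible recombinase driven here by the promoter of the endothelial gene Cdh5, was carried by LRP1 eKO mice only, and its effect cannot be told apart from that of LRP1 loss. No inducing treatment is given in the sources used here. According to the study's methods, ECs were selected with beads that carry an antibody against PECAM-1, an endothelial surface protein. The labels number the libraries within a genotype but do not say that each came from its own animal, so the p-values measure only the spread between these libraries, which may be technical.

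PARP enzymes use NAD+ to attach ADP-ribose to proteins. PARP1 and PARP2 are nuclear enzymes that bind broken DNA and build chains of ADP-ribose that recruit repair factors, while PARP3 attaches single units at DNA breaks. Most other family members transfer single ADP-ribose units, and several of them belong to the genes that cells switch on in response to interferons, where they act in antiviral and inflammatory signalling. In that pathway an interferon receptor activates JAK kinases, which phosphorylate STAT proteins, and STAT2 acts on DNA together with IRF9.

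The authors' quantile normalization gave all libraries almost the same total, so the sequencing depth behind each value is unknown. Signals were tested as log2(signal + 1) with limma for the 11391 genes that reached a signal of 1 in 4 or more libraries, and all 10 members passed this filter with a signal above 1 in all 8 libraries. The mean Lrp1 signal, that of the targeted gene, was 65.5 ± 13.3 (SD, n = 4) for WT mice and 4.41 ± 1.65 (SD, n = 4) for LRP1 eKO mice, 6.74% of the WT mean. WT replicate 4 was the library farthest from the WT median for 61.7% of genes, and LRP1 eKO replicate 2 was farthest from its group's median for 37.2%. Of 14 endothelial markers, 10 passed the filter, while Tek, Erg, Stab2 and Clec4g did not. Pecam1 signals lay between 1.53 and 2.50 in WT and between 1.84 and 3.85 in LRP1 eKO libraries. The signals of the other endothelial markers varied. Cdh5 lay between 1.26 and 2.27 in WT and between 2.21 and 4.99 in LRP1 eKO libraries (log2 fold change 0.68, limma adjusted p = 0.020). Tie1 lay between 0.784 and 1.16 in WT and between 0.587 and 1.57 in LRP1 eKO libraries. Lyve1 lay between 1.63 and 2.02 and between 0.925 and 3.06. Eng lay between 11.0 and 13.8 in WT and between 19.7 and 27.5 in LRP1 eKO libraries. Egfl7 lay between 7.72 and 11.6 and between 6.65 and 12.2, and Kdr between 3.34 and 4.55 and between 3.99 and 5.23. The lowest signals of the mesenchymal genes Dcn, Col1a1 and Col3a1 in any library were 441, 326 and 218. Lrat and Reln, from the same list of 8 stellate and mesenchymal markers, were under 1 in every library. Whether signals are scaled by gene length is not stated, so signals of different genes do not give the shares of cell types. The share of endothelial cells in these libraries was not tested, and "EC" is used below as the name that the study gives to the cells.

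All 6 interferon-linked genes were higher in LRP1 eKO than in WT libraries, with log2 fold changes from 0.37 for Parp11 to 1.23 for Parp9. Of the DNA repair genes, Parp1 and Parp2 fell by 0.25 and 0.23 on the log2 scale and Parp3 was higher by 0.58. Parp8 fell by 0.28. Each of these 10 differences had a limma adjusted p under 0.05, so that 7 members were higher and 3 were lower. Among all genes tested, 19% were higher and 22.2% were lower by the same test. At a change of at least 2-fold, 2 members were higher (Parp9 and Parp14) and 0 were lower, where 0.869% of all genes were higher and 0.79% were lower. For each member the WT and LRP1 eKO signals were separate (p = 0.029 by an exact permutation test, two-sided, which is the lower limit for 4 against 4 libraries), a separation shown by 20% of all genes upward and 22.5% downward. In these bulk libraries a change in the share of a cell type and a change of RNA per cell cannot be told apart. Without WT replicate 4 and LRP1 eKO replicate 2, the libraries that stood apart most, 7 members were still higher, 3 were lower and 2 were higher by at least 2-fold.

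**Figure D1:**
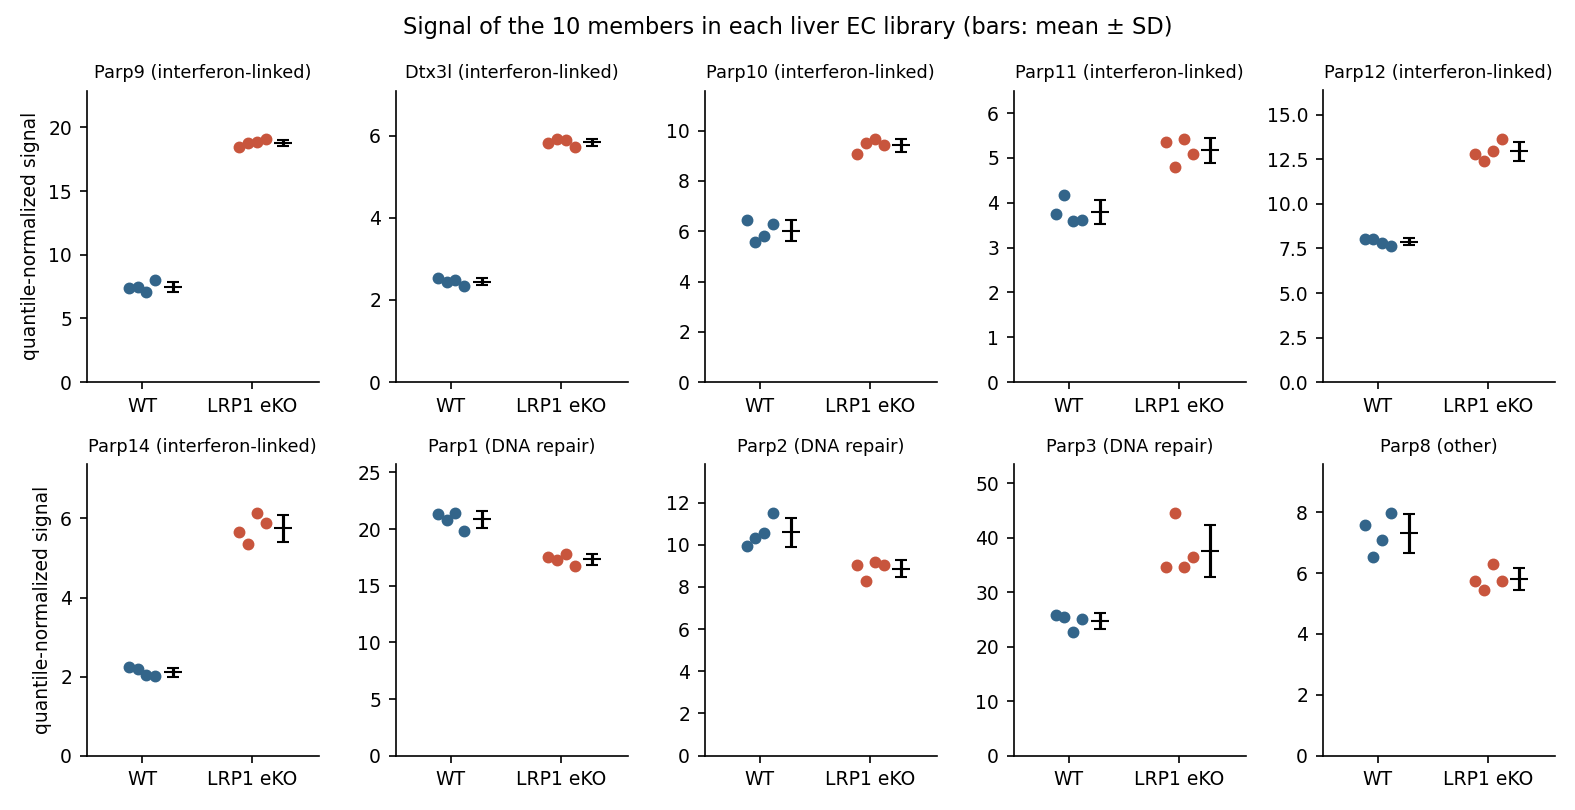
Quantile-normalized signal (y axis, linear, from 0, scaled for each gene) of the 10 members in WT and LRP1 eKO libraries, with 1 point per library and bars for the mean ± SD (n = 4). The groups are separate in every panel, upward for the 6 interferon-linked genes and Parp3 and downward for Parp1, Parp2 and Parp8.

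Parp9 (ENSMUSG00000022906) encodes a macrodomain protein that binds ADP-ribose and forms a complex with DTX3L. Its signals were 7.36, 7.49, 7.04 and 7.98 in WT replicates 1 to 4 and 18.5, 18.8, 18.8 and 19.1 in LRP1 eKO replicates 1 to 4. The lowest LRP1 eKO library was thus far above the highest WT library, and the LRP1 eKO libraries hardly differed from each other, with a coefficient of variation of 1.32%. The mean rose from 7.47 ± 0.391 to 18.8 ± 0.249 (SD, n = 4), a ratio of means of 2.52. The log2 fold change was 1.23 (standard error 0.049, 95% interval 1.12 to 1.34, limma adjusted p = 1.98e-07), the largest of the members and the 72nd largest increase of all genes tested.

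Dtx3l (ENSMUSG00000049502) encodes an E3 ubiquitin ligase of the Deltex family. Its signals were 2.54, 2.44, 2.48 and 2.33 in WT and 5.82, 5.91, 5.90 and 5.71 in LRP1 eKO replicates 1 to 4. Both groups were tight, with SDs of 0.0875 and 0.0917 around means of 2.45 and 5.84. The ratio of means was 2.38. The log2 fold change of 0.99 (standard error 0.051, limma adjusted p = 9.53e-07) fell just short of the 2-fold threshold, since 1 is added to each signal before the logarithm and this shrinks the change of a gene at a low signal. With a pseudocount of 0.1 in place of 1 the log2 fold change of Dtx3l was 1.22. Within a library the Parp9 signal was 2.84 to 3.42 times the Dtx3l signal in WT and 3.17 to 3.34 times in LRP1 eKO libraries, so these ranges overlapped while both genes rose. The ratios are not molar ratios, since length scaling is not known, and they were chosen after the values were seen.

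Parp9 and Dtx3l lie head to head on mouse chromosome 16 (GENCODE M21, GRCm38). Parp9 spans chr16:35938470-35972605 on the plus strand and Dtx3l spans chr16:35926511-35939151 on the minus strand, and their annotated ends overlap by 682 bases. Of 7 annotated Parp9 transcripts, 4 start within the promoter window of Dtx3l. They start between 90 and 140 bases inside the first base that GENCODE gives for Dtx3l. Whether counting used the strand is not stated, so reads from the overlap cannot be assigned to either gene with certainty, and the same holds for the antisense gene Gm15564, which overlaps Parp9 by 5854 bases. The window below is shown because it holds transcript starts of both genes. It was taken from RefSeq on GRCm38.p6 (chr16:35938978-35939277, minus strand, 250 bases before to 50 after the RefSeq start of Dtx3l). This RefSeq start is not the GENCODE first base but lies inside the GENCODE gene. It was searched on both strands for the interferon-stimulated response element GAAANNGAAA, which is TTTCNNTTTC on the other strand, and for the gamma-activated site TTCNNNGAA. These letters occur in 3.44% and 8.3% of all 32851 promoter windows of the table. Neither was found in the Dtx3l window, which is therefore printed in lower case throughout.
Dtx3l: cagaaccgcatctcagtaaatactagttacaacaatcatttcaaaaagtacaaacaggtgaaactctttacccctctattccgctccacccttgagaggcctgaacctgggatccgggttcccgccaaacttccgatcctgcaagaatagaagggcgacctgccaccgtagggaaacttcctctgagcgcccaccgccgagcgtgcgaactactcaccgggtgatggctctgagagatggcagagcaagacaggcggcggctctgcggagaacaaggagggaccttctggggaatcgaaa

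The other annotated neighbours within 20 kb were Kpna1 and the pseudogene Gm10237. Kpna1, which encodes an importin that carries proteins into the nucleus, begins 6145 bases beyond Parp9, and Gm10237 was 5712 bases from Dtx3l. Kpna1 averaged 12.6 ± 1.29 in WT libraries and 16.2 ± 0.517 without LRP1 (SD, n = 4), a change of 0.34 on the log2 scale (limma adjusted p = 0.0042). Parp14 lies on the same chromosome at chr16:35832874-35871544, 54967 bases from Dtx3l, and the 3 members together span 139732 bases.

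**Figure D2:**
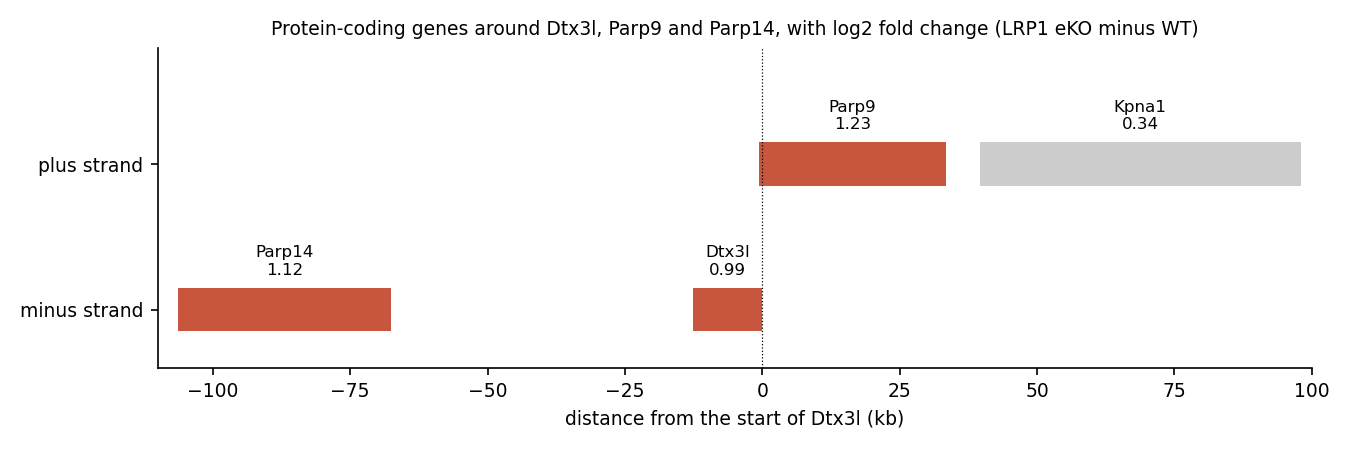
Protein-coding genes around Dtx3l, drawn to scale by distance from the start of Dtx3l in kb (x axis) and by strand (y axis), with the log2 fold change of each gene (LRP1 eKO minus WT). Members are in red, with values of 1.12 for Parp14, 0.99 for Dtx3l and 1.23 for Parp9, and the neighbour Kpna1 is in grey with 0.34.

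Parp14 (ENSMUSG00000034422) encodes a large enzyme with macrodomains that transfers single ADP-ribose units and takes part in STAT6 signalling. Its signals were 2.24, 2.18, 2.03 and 2.00 in WT and 5.65, 5.35, 6.15 and 5.88 in LRP1 eKO replicates 1 to 4. The WT libraries were close to each other, and even the lowest LRP1 eKO library, replicate 2, was far above all of them. The mean rose from 2.11 ± 0.113 to 5.76 ± 0.340 (SD, n = 4). This ratio of means of 2.72 was the largest among the members, and the log2 fold change was 1.12 (standard error 0.060, 95% interval 0.98 to 1.25, limma adjusted p = 1.26e-06). The lower end of the interval was under the 2-fold threshold. The annotated gene Gm49730 overlaps Parp14 by 1773 bases on the same strand, and how reads of this overlap were assigned is not stated. Over the 8 libraries, the 5 non-member genes whose centred log2 values were most like those of Parp14 were Ddx58, Adar, Oas1b, Lgals9 and Iigp1. Their root mean square differences from Parp14 were 0.0351, 0.0667, 0.0710, 0.0796 and 0.0807 on the log2 scale. Ddx58 encodes the RNA sensor RIG-I, Adar an RNA-editing enzyme, Oas1b a member of the oligoadenylate synthetase family, Lgals9 a galectin and Iigp1 an interferon-inducible GTPase. The genotype difference was not removed before these genes were ranked, here or for Parp1 below. The measure therefore favours genes with a change of similar size, and the log2 fold changes of the 5 genes were 1.04 to 1.16. A shared role of the 5 was not tested.

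Parp12 (ENSMUSG00000038507, chr6:39086410-39118349) encodes an enzyme with zinc fingers that bind RNA. Its signals were 8.05, 8.01, 7.79 and 7.62 in WT and 12.8, 12.4, 13.0 and 13.6 in LRP1 eKO replicates 1 to 4. Its mean rose from 7.87 ± 0.199 to 12.9 ± 0.513 (SD, n = 4), with a log2 fold change of 0.65 (standard error 0.049, limma adjusted p = 9.17e-06). This change was smaller than those of Parp9, Parp14 and Dtx3l, and its 95% interval (0.54 to 0.76) lay below theirs.

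Parp10 (ENSMUSG00000063268, chr15:76231174-76243441) encodes an enzyme that transfers single ADP-ribose units and was first described as a partner of MYC. Its signals were 6.45, 5.55, 5.80 and 6.30 in WT and 9.07, 9.50, 9.66 and 9.43 in LRP1 eKO replicates 1 to 4. Its mean rose from 6.02 ± 0.417 to 9.42 ± 0.252 (SD, n = 4), with a log2 fold change of 0.57 (standard error 0.057, limma adjusted p = 6.17e-05). Plec, the gene of the cytoskeletal linker plectin, overlaps Parp10 by 1401 bases on the same strand and was named after its values were seen. Its signal also rose, from 9.64 ± 1.26 to 18.9 ± 2.21 (SD, n = 4, log2 fold change 0.90, limma adjusted p = 1.08e-04), and how reads of the overlap were assigned is not stated, so the value of Parp10 is uncertain to that extent.

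Parp11 (ENSMUSG00000037997, chr6:127446840-127494261) encodes a small enzyme of the same kind with a WWE domain. Its signals were 3.76, 4.17, 3.59 and 3.62 in WT and 5.36, 4.80, 5.42 and 5.08 in LRP1 eKO replicates 1 to 4. WT replicate 2 was the highest of its group and LRP1 eKO replicate 2 the lowest of its own, and the gap between them was the smallest among the interferon-linked genes. The mean rose from 3.79 ± 0.267 to 5.17 ± 0.284 (SD, n = 4), with a log2 fold change of 0.37 (standard error 0.063, limma adjusted p = 0.0015). Gm43633, an annotated gene on the same strand, overlaps Parp11 by 2330 bases, and the assignment of reads from this overlap is not stated either.

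Promoter windows were found for 7 of the 10 members, and for Parp9, Parp10 and Parp14 none was used. Among the 8 windows of these 7 members, only the first Parp11 window held either motif. The Parp11 and Parp12 windows are printed as the windows of an interferon-linked gene with and without these letters, and the Parp3 window as that of the DNA repair gene that rose. Capitals mark the matches, which in Parp11 overlap. TTTCGATTTC, the interferon-stimulated response element on the opposite strand, lies at positions -44 to -35, and the gamma-activated site TTCTTGGAA at -37 to -29, counted from the start of the transcript. The match describes letters only, and no binding was measured. The windows are chr6:127446590-127446889 (plus strand), chr6:39118300-39118599 (minus strand) and chr9:106476900-106477199 (minus strand), from RefSeq on GRCm38.p6.
Parp11: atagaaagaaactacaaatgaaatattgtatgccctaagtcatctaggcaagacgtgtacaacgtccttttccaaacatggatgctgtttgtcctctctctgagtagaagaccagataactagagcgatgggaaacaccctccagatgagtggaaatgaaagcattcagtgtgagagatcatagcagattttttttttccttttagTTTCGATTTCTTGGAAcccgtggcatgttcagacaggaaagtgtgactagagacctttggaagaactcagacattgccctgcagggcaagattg
Parp12: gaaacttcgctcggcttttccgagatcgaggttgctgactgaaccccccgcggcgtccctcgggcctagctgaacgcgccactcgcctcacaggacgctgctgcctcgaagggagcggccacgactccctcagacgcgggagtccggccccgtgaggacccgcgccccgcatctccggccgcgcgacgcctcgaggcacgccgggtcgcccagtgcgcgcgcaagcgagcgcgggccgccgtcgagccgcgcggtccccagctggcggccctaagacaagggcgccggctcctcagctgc
Parp3: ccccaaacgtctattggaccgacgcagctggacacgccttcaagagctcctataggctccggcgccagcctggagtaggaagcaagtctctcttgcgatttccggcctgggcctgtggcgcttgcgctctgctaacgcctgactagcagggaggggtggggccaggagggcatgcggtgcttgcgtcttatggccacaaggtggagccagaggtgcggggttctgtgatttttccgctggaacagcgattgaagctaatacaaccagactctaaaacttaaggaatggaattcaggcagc

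Parp1 (ENSMUSG00000026496, chr1:180568924-180601254) encodes the main sensor of DNA strand breaks in the family. Its signals were 21.3, 20.8, 21.5 and 19.9 in WT and 17.5, 17.3, 17.8 and 16.7 in LRP1 eKO replicates 1 to 4. The groups were close but separate. The mean fell from 20.9 ± 0.719 to 17.3 ± 0.474 (SD, n = 4), 83.1% of the WT mean, with a log2 fold change of -0.25 (standard error 0.045, 95% interval -0.35 to -0.15, limma adjusted p = 0.0019). The 5 genes most like Parp1 over the 8 libraries were 2310022B05Rik, Chaf1a, Antxr1, Anapc5 and Eri2, with root mean square differences of 0.0241 to 0.0328 on the log2 scale. Chaf1a encodes a subunit of a chromatin assembly factor that acts at replicating DNA, and Anapc5 a subunit of the anaphase-promoting complex. The closest gene, 2310022B05Rik, and Antxr1 and Eri2 are given by name only, and a shared role of the 5 was not tested.

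Parp2 (ENSMUSG00000036023, chr14:50807841-50821301) encodes the closest relative of PARP1. Its signals were 9.93, 10.3, 10.6 and 11.5 in WT and 9.02, 8.26, 9.18 and 9.02 in LRP1 eKO replicates 1 to 4. The groups came closest between WT replicate 1 and LRP1 eKO replicate 3. The mean fell from 10.6 ± 0.677 to 8.87 ± 0.414 (SD, n = 4), 83.8% of the WT mean, with a log2 fold change of -0.23 (standard error 0.059, 95% interval -0.36 to -0.10, limma adjusted p = 0.012).

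Parp3 (ENSMUSG00000023249, chr9:106470322-106476949) encodes an enzyme of double-strand break repair. Its signals were 25.8, 25.4, 22.7 and 25.0 in WT and 34.7, 44.6, 34.7 and 36.5 in LRP1 eKO replicates 1 to 4. LRP1 eKO replicate 2 was the highest library and made Parp3 the most variable member in this group, with a coefficient of variation of 12.6%. The mean rose from 24.7 ± 1.43 to 37.6 ± 4.74 (SD, n = 4), with a log2 fold change of 0.58 (standard error 0.082, limma adjusted p = 5.11e-04). Without LRP1 eKO replicate 2 the log2 fold change was 0.50 (limma adjusted p = 2.57e-04). Rrp9, a ribosomal RNA processing gene named after its values were seen, overlaps Parp3 by 987 bases on the opposite strand and changed by 0.11 on the log2 scale (limma adjusted p = 0.28). Relative to Parp1, the Parp3 signal was 1.06 to 1.26 times as high in WT libraries and 1.94 to 2.58 times in LRP1 eKO libraries. This difference follows from the rise of Parp3 and the fall of Parp1. The pair was chosen after the values were seen, and the ratios are not molar ratios.

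Parp8 (ENSMUSG00000021725, chr13:116854820-117025537) encodes a family member whose function is little known. Its signals were 7.59, 6.54, 7.10 and 7.99 in WT and 5.75, 5.45, 6.30 and 5.73 in LRP1 eKO replicates 1 to 4. WT replicate 2 and LRP1 eKO replicate 3 were close to each other. The mean fell from 7.30 ± 0.626 to 5.81 ± 0.355 (SD, n = 4), 79.5% of the WT mean, with a log2 fold change of -0.28 (standard error 0.069, 95% interval -0.44 to -0.13, limma adjusted p = 0.0090).

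The median log2 fold change was 0.82 for the interferon-linked genes and -0.23 for the DNA repair genes, beside -0.01 for all genes tested. The values of the role groups overlapped, since Parp3 with 0.58 was above Parp10 with 0.57 and Parp11 with 0.37. The decreases of Parp1, Parp2 and Parp8 and the increases of Parp3, Parp10, Parp11 and Parp12 were within the range of -0.66 to 0.69 that held the middle 95% of all genes, and those of Parp9, Parp14 and Dtx3l were beyond it.

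**Figure D3:**
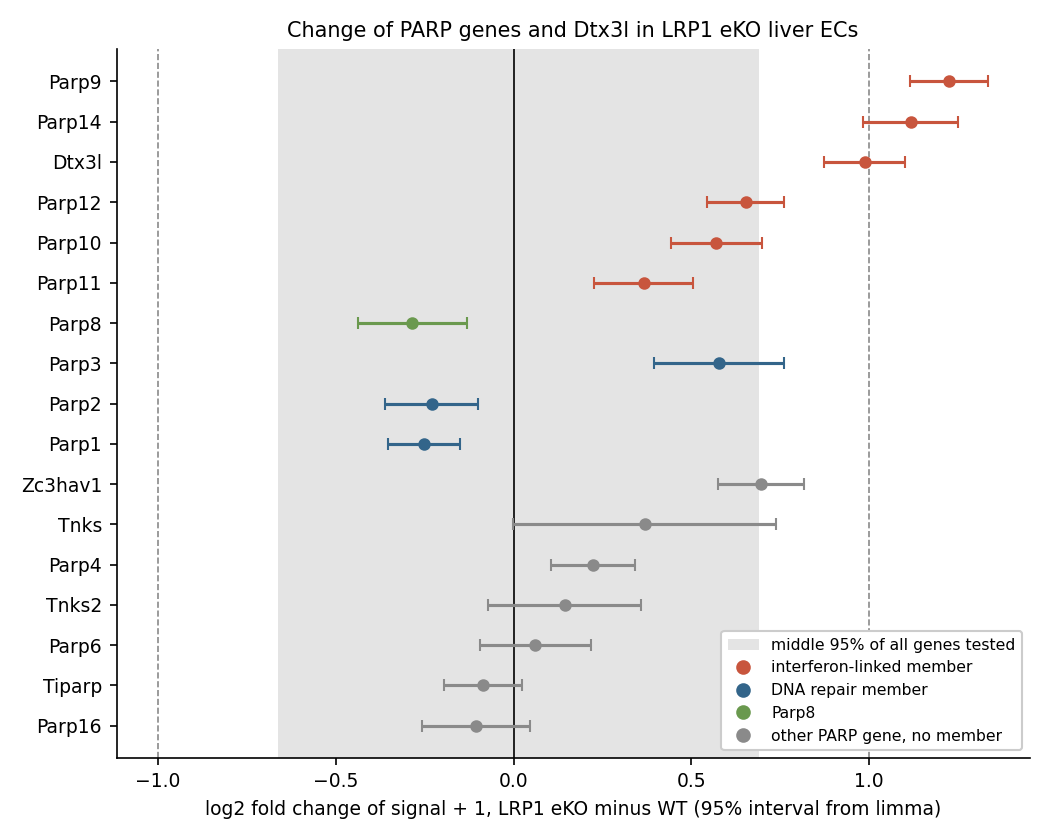
Log2 fold change of signal + 1 (LRP1 eKO minus WT, x axis) with its 95% interval from limma for the 10 members and 7 other PARP genes, ordered by role. Parp9, Parp14 and Dtx3l lie to the right of the grey band, which spans the middle 95% of all genes tested. Zc3hav1, a PARP gene outside the members, lies just beyond the edge of the band (0.695 against 0.692). Dashed lines mark a 2-fold change.

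Outside the members, Zc3hav1 and Parp4 were the PARP genes that passed the test. Of 7 other PARP genes tested, 2 were higher, 0 were lower and 5 did not pass, with a median log2 fold change of 0.14. The shares among all genes tested were 19% higher and 22.2% lower. Zc3hav1, which encodes the antiviral protein ZAP, a catalytically inactive family member that binds viral RNA, rose from 12.6 ± 0.819 to 20.9 ± 0.575 (SD, n = 4, log2 fold change 0.70, limma adjusted p = 1.18e-05). Parp4, the PARP of vault particles, rose from 8.35 ± 0.431 to 9.91 ± 0.300 (SD, n = 4, log2 fold change 0.22, limma adjusted p = 0.0083). The tankyrase genes Tnks and Tnks2 had log2 fold changes of 0.37 and 0.14 (limma adjusted p = 0.099 and 0.25). Of the other Deltex genes, 3 of 4 were tested, with 0 higher and 1 lower. That gene, Dtx3, had a value of -0.22 (limma adjusted p = 0.041), but it did not pass in 10 of the 18 alternatives, among them each single omission of WT replicates 1, 2 and 4 and of any LRP1 eKO replicate. The value of Dtx4 was -0.08 (limma adjusted p = 0.45).

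Of 10 genes whose products remove ADP-ribose, 0 were higher by limma at an adjusted p under 0.05, also 0 at an unadjusted p under 0.05. At the adjusted threshold 3 were lower, where 22.2% of all genes were lower, and the median log2 fold change was -0.16. The gene listed as AI314976, which is Oard1 and removes ADP-ribose from glutamate, had the largest decrease (log2 fold change -0.36, limma adjusted p = 0.0070), followed by the macrodomain gene Macrod1 (-0.32, limma adjusted p = 0.019). Without LRP1 eKO replicate 3 only 1 gene was lower, and without LRP1 eKO replicate 2 there was 1 higher gene. Among the genes that make NAD+, 7 of 10 were tested, of which 2 were higher and 1 was lower, beside 19% and 22.2% of all genes. Their median log2 fold change was -0.08, but -0.0078 without WT replicate 4, 0.01 when LRP1 eKO replicate 2 was omitted as well, and 0.24 with a minimum mean signal of 5, so that its sign was not stable. Nampt, the rate-limiting enzyme of NAD+ salvage, rose by 0.26 on the log2 scale (limma adjusted p = 0.0042), Nadk, the NAD+ kinase, by 0.22 (limma adjusted p = 0.013), and the gene listed as Naprt1, which uses nicotinic acid, fell by 0.52 (limma adjusted p = 0.0011). When LRP1 eKO replicate 2 was omitted, 2 genes of this list were lower. Of 6 tested genes of other NAD+ consumers, 0 passed by limma at an adjusted p under 0.05 and 1 was higher at an unadjusted p under 0.05. The largest log2 fold changes were 0.33 for Cd38 and 0.16 for Sirt1 (limma adjusted p = 0.45 and 0.20). When that library was omitted, 2 of these genes were higher.

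The partners of PARP1 and the factors of strand-break repair moved in the direction of Parp1 and Parp2. Of 19 tested genes, 0 were higher by limma at an adjusted p under 0.05 (1 at an unadjusted p under 0.05) and 8 were lower, with a median log2 fold change of -0.15, where 22.2% of all genes were lower. Lig1, the DNA ligase of replication and repair, fell from 11.6 ± 1.53 to 7.05 ± 1.08 (SD, n = 4, log2 fold change -0.65, limma adjusted p = 0.0017). Xrcc5, which encodes the larger subunit of the Ku complex, changed by -0.42 on the log2 scale (limma adjusted p = 2.54e-04). Chd1l, a chromatin remodeller activated by poly(ADP-ribose), had -0.36 (limma adjusted p = 0.0046), and Apex1, the endonuclease of abasic sites, had -0.32 (limma adjusted p = 0.013). The gene listed as 2700029M09Rik, which is Hpf1 and encodes the cofactor that directs PARP1 and PARP2 to serine, was named after its values were seen and had -0.28 (limma adjusted p = 0.021). Proliferation genes moved with this list, since 16 of 16 were lower, with a median log2 fold change of -0.61. Their summed signal was 388 to 404 in WT and 223 to 257 in LRP1 eKO libraries, and its part in the lower Parp1, Parp2 and repair signals was not tested. The cyclin genes Ccnb1 and Ccnb2 and the topoisomerase gene Top2a fell by at least 2-fold (log2 fold changes -1.13, -1.12 and -1.06, with limma adjusted p = 1.49e-06, 6.55e-07 and 5.83e-06).

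Of 12 genes of interferon signalling, 7 were higher and 1 was lower, with a median log2 fold change of 0.20. Among all genes, 19% were higher and 22.2% were lower. Irf7, a transcription factor of the type I interferon response, had signals of 10.7, 9.99, 9.07 and 11.2 in WT and 69.1, 58.4, 69.1 and 63.5 in LRP1 eKO replicates 1 to 4. Its log2 fold change was 2.55 (limma adjusted p = 1.67e-08). Stat2 and Irf9, which encode factors that act at interferon-stimulated response elements, had log2 fold changes of 1.25 and 0.99 (adjusted p = 1.15e-07 and 1.89e-06 from limma). The kinase gene Jak1 rose by 0.37 (limma adjusted p = 8.67e-04). Irf1 was the exception and changed by -0.25 on the log2 scale (limma adjusted p = 0.014). The receptor genes Ifnar1 and Ifnar2, named after their values were seen, had log2 fold changes of 0.03 and -0.21 (limma adjusted p = 0.71 and 0.064).

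**Figure D4:**
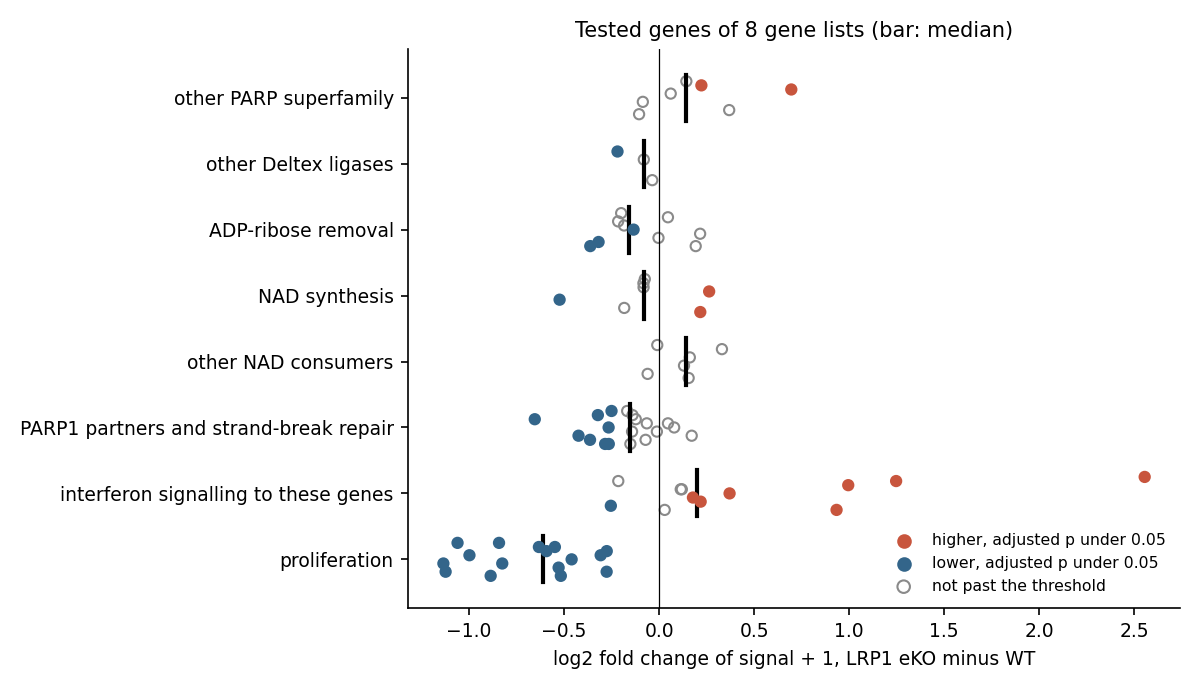
Log2 fold change of signal + 1 (LRP1 eKO minus WT, x axis) of each tested gene in 8 gene lists (y axis), with filled points for genes at a limma adjusted p under 0.05 and a bar at the median of each list. Interferon signalling holds the largest increase, Irf7 at 2.55, and the 16 proliferation genes all lie below 0.

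Markers of other cells differed between the genotypes and between the LRP1 eKO libraries. Of 14 macrophage markers, 9 passed the filter, of which 1 was higher by limma, where 19% of all genes were higher. The summed signal over all 14 was 114 to 223 in WT libraries but 740, 53.1, 676 and 397 in LRP1 eKO replicates 1 to 4. The defining Kupffer cell gene Clec4f was listed at 0 in all WT libraries and at 0.826, 0.124, 0.537 and 0.427 in LRP1 eKO replicates 1 to 4, below the filter. In LRP1 eKO replicate 2 the summed macrophage signal was below that of every WT library, and the signals were 18.8 for Parp9 and 5.35 for Parp14. Without that library the log2 fold changes were 1.23 for Parp9 and 1.15 for Parp14. The part of macrophages in the member signals was not tested. The 12 lymphocyte and NK cell markers summed to 0.257 to 0.761 in WT and 0.267 to 2.33 in LRP1 eKO libraries, and 0 of them passed the filter. Of 5 plasmacytoid dendritic cell markers, 2 passed, and the sum of 93.1 to 105 in WT and 257 to 294 in LRP1 eKO libraries was mostly Bst2, which is itself an interferon-induced gene and was named after its values were seen. Of 6 neutrophil markers, 1 passed, with sums of 0.735 to 1.84 in WT and 1.50 to 3.57 in LRP1 eKO libraries.

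The endothelial markers summed to 39.4 to 45.2 in WT and 47.1 to 86.8 in LRP1 eKO libraries. By limma 2 of the 10 tested were higher, where 19% of all genes were higher and 22.2% were lower. The 8 hepatocyte markers summed to 77.2 to 112 in WT and 25.6 to 32.9 in LRP1 eKO libraries, and all 6 that were tested were lower. The 7 skeletal muscle markers in the table summed to 32.1 to 54.4 and 5.93 to 7.36, and all 4 tested were lower. The 8 stellate and mesenchymal markers summed to 1299 to 1422 and 1141 to 1385, and the 6 erythroid markers to 24.7 to 46.9 and 14.6 to 24.7. The part of hepatocyte, muscle and endothelial cells in the member signals was not tested.

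**Figure D5:**
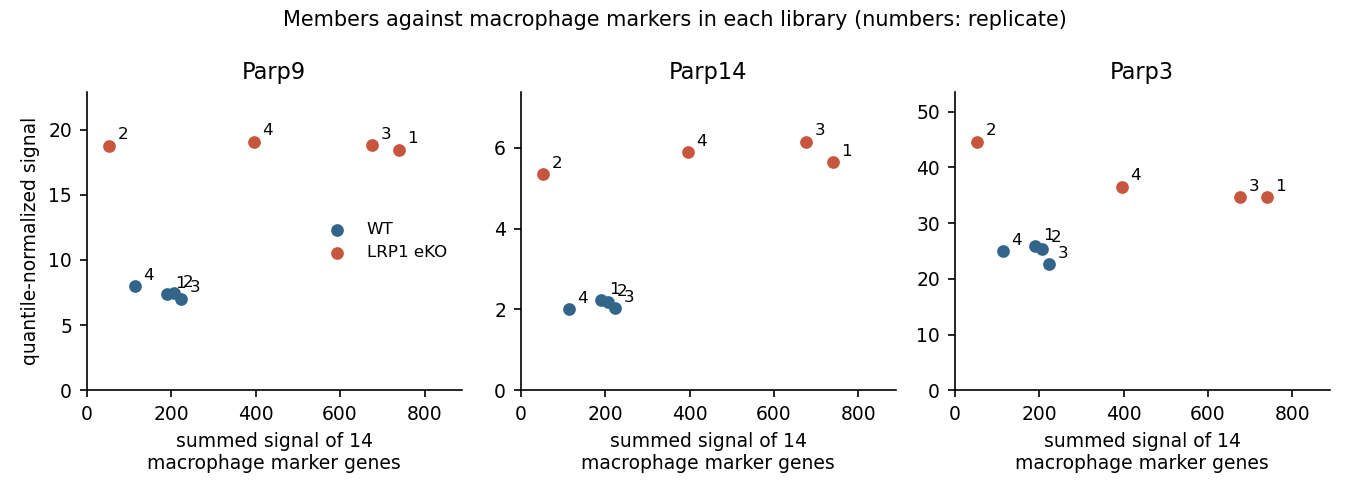
Quantile-normalized signal of Parp9, Parp14 and Parp3 (y axes) against the summed signal of 14 macrophage markers (x axes) in each library, with the replicate number beside each point. LRP1 eKO replicate 2, with a macrophage sum of 53.1, lies at 18.8 for Parp9 and 5.35 for Parp14, above every WT library.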

How the data were processed

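The 4 WT and 4 LRP1 eKO liver EC libraries were assigned to genotype and replicate by the sample labels. The authors deposited a quantile-normalized signal per library for each of 22520 protein-coding genes. The submitters' processing notes name TopHat2, Cufflinks and mm10, whereas the paper's methods state trimming, mapping, counting and an edgeR test of counts. The unit before quantile normalization and the use of strand are not given in the sources used here. Because normalization fixed the totals (484445 to 485947 per library), depth is unknown and no counting interval was computed. The table holds no counts, so that a test of counts was not used.

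From the signal, log2(signal + 1) was fitted by genotype alone in limma (version 3.58.1, R 4.3.3), allowing a trend of variance with the mean. P-values were adjusted by Benjamini-Hochberg over the 11391 genes that reached a signal of 1 in 4 or more libraries. Thresholds were an adjusted p under 0.05, alone or with a 2-fold change. The calculation was tested on simulated data. Positions came from GENCODE M21, in which 21740 gene identifiers were found, and promoters from RefSeq on GRCm38.p6. Plots were made in Python 3.11.15 with matplotlib 3.10.9.

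The members and lists were chosen with earlier results of these data known. Named were the 10 members, Lrp1, from each list the genes past both thresholds and at most 4 others with the largest change (the top 2 where none passed), the 5 genes most like Parp14 and Parp1, and annotated neighbours within 20 kb of Parp9 and Dtx3l. The result of 1 gene that this rule names is not reported here. Other genes are said to be named after their values were seen. So are Pecam1, Cdh5, Tie1, Lyve1, Eng, Egfl7, Kdr, Dcn, Col1a1, Col3a1, Lrat, Reln, Clec4f and the endothelial markers below the filter. Alternatives were a pseudocount of 0.1 or 5, genes unfiltered or filtered at a mean signal of 5, moderation without the trend or robust, weighted arrays, trimmed-mean centring, the replicate number as a block, a ratio of means and leaving out each library. Leaving out WT replicate 4 and LRP1 eKO replicate 2 together was chosen after seeing the data.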

Additional observations from a re-analysis of the deposited data

Results flagged for a closer look

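Parp2 in LRP1 eKO libraries stood out because of 1 sample far from the others. LRP1 eKO replicate 2 had a signal of 8.26, while the other LRP1 eKO libraries lay between 9.02 and 9.18. The gap to the nearest library was 0.830 of the range of the group, just above the critical value of Dixon's test for 4 samples. Without this library the log2 fold change of Parp2 was -0.20 (limma adjusted p = 0.031). Of 22 groups examined this was the only 1 past that value, where chance alone gives 1.1.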

How the results depend on the processing

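Each of the 10 members kept its direction and a limma adjusted p under 0.05 in every alternative in which it was tested. The log2 fold changes ranged over these from 0.93 to 1.32 for Parp9, 0.60 to 1.40 for Parp14, 0.54 to 1.22 for Dtx3l, 0.48 to 0.71 for Parp12, 0.39 to 0.64 for Parp10, 0.21 to 0.44 for Parp11, 0.50 to 0.61 for Parp3, -0.28 to -0.21 for Parp1, -0.26 to -0.16 for Parp2 and -0.33 to -0.19 for Parp8. The ratio of means has no test and is not part of these ranges. Its log2 values were above them for the interferon-linked genes, with 1.33 for Parp9, 1.45 for Parp14, 1.25 for Dtx3l, 0.719 for Parp12, 0.644 for Parp10 and 0.448 for Parp11. A minimum mean signal of 5 left Dtx3l, Parp11 and Parp14 untested, so that 4 members were higher and 1 was higher by 2-fold. With a pseudocount of 5, 0 members were higher by 2-fold, and with 0.1 there were 3.

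Over all genes, 99 were higher and 90 were lower by at least 2-fold. The higher genes numbered 149 with a pseudocount of 0.1, 40 with a pseudocount of 5, 63 with a minimum mean signal of 5, 174 without LRP1 eKO replicate 2 and 163 when WT replicate 4 was left out as well. The lower genes numbered 166 and 26 with pseudocounts of 0.1 and 5. Leaving out 1 library at a time gave 89 to 174 higher and 83 to 105 lower genes at 2-fold, and 1715 to 2206 and 2025 to 2604 at an adjusted p under 0.05 alone. It gave 7 higher, 3 lower and 2 to 3 members at 2-fold.

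Same-numbered libraries of the genotypes did not deviate together (correlations of deviations across genes of -0.086, -0.130, 0.178 and 0.038), and no library correlated best with its own number. With the replicate block, 1975 genes were higher and 2210 lower, 102 and 90 of them by 2-fold, and 7, 3 and 2 members passed as before. The block ended the call of Dtx3. Quantile normalization removes a global shift between genotypes, and with depth unknown, precision rests on the spread of 4 libraries per group.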
